A study of Mus musculus with 7 samples.

Results

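CTCF binding sites without a called cohesin site were described in neural progenitor cells (NPCs) derived from mouse embryonic stem (ES) cells. A site was taken when a CTCF peak on chromosomes 1 to 19 shared no base pair with any peak of the cohesin subunit Smc1. Of 41909 CTCF peaks on these chromosomes, 13565 met this rule, which is 32.4% (exact binomial 95% interval 31.9% to 32.8%, counting error only). The other 28344 CTCF peaks shared at least 1 bp with an Smc1 peak and are called shared sites below. The 13565 peaks are called CTCF sites without cohesin, where "without" says only that the Smc1 list holds no peak there. Smc1 signal below the limit of that list is not recorded in it.

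The ES cells were of the male V6.5 line (strain 129SvJae x C57BL/6), weaned off feeder cells on gelatin. NPCs were made through embryoid bodies without LIF, selection in serum-free ITSFn medium and expansion with Fgf2, and were fixed in formaldehyde. CTCF and Smc1 were each mapped by chromatin immunoprecipitation and sequencing (ChIP-seq) in 1 NPC library, with different wash conditions for the 2 antibodies per the labels' protocols. The study also held 5C contact libraries of ES cells and NPCs and an input library, which were not used here. All chromatin came from 1 cell line, and the cell identity cannot be checked from peak positions. There is no replicate of either list and the depth of the libraries is unknown, so no value below has a replicate error or a test. Each difference between sets is a description of these 2 peak lists.

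CTCF is a zinc finger protein that binds a long DNA motif and is known as an insulator protein and as an anchor of chromatin loops. Cohesin is a ring-shaped complex, of which Smc1 is a core ATPase subunit. It moves along chromatin and is halted at many bound CTCF sites, so that both proteins are often found at the same place. CTCF sites at which cohesin is not detected are a known minority class in mammalian cells.

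CTCF sites without cohesin had low peak scores. The score of a peak, as deposited by the authors, is not defined in the sources used here. From its lower limit near 80 and the p-value limit of 1E-8, it was read as the log10 p-value of the peak call multiplied by −10. On this reading a higher score is a call with more support. The lowest score in the CTCF list was 80.02. Sites without cohesin had a median score of 128.63, with quartiles of 99.54 and 186.99 and a highest value of 1621.4. Shared sites had a median of 408.83, with quartiles of 218.82 and 687.68. The median was lower for sites without cohesin on 19 of 19 chromosomes, at 119.42 to 135.19 against 363.69 to 470.24, and these ranges did not overlap. Scores under 200 were held by 78.3% of sites without cohesin and by 21.9% of shared sites. Scores under 100, next to the limit of the list, were held by 26.6% and 3.57%.

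The share of CTCF peaks without cohesin fell from the lowest to the highest scores. It was 78.1% of 4617 peaks with a score of 80 to 100 (95% interval 76.8% to 79.2%). It was 57.4% of 12229 peaks from 100 to 200, and 20.1% of 13242 peaks from 200 to 500. From 500 to 1000 it was 2.80% of 9156 peaks, and at 1000 or more it was 0.638% of 2665 peaks (0.372% to 1.02%). The support for the Smc1 peaks moved with that for CTCF. Among shared sites, the median Smc1 score was 129.7 at CTCF scores of 80 to 100, 152 from 100 to 200, 268 from 200 to 500, 546 from 500 to 1000 and 847 at 1000 or more. Smc1 peaks at weakly scored CTCF sites were themselves nearer to the limit of their list. The share without cohesin moved with both limits. With Smc1 peaks of a score of at least 200, 22612 CTCF peaks (54.0%) were without cohesin, and with CTCF peaks of at least 200 there were 2938 (11.7%).

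**Figure D1:**
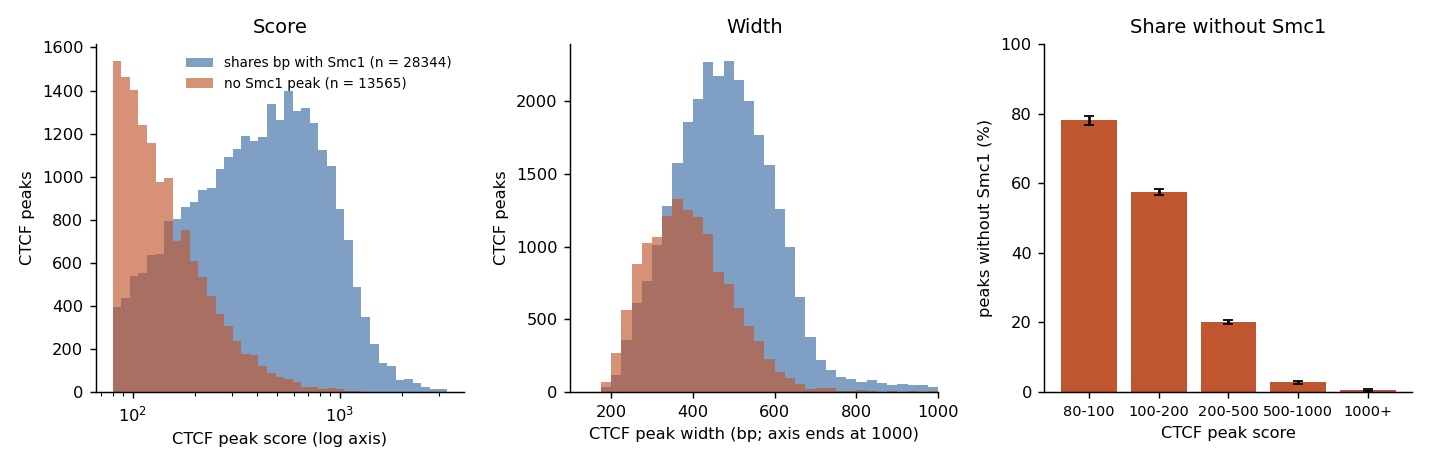
CTCF peaks by score (left, log axis), by width (middle, bp) and the percent of CTCF peaks without an Smc1 peak in 5 ranges of score (right, bars with exact 95% binomial intervals). Peaks without Smc1 (orange) are most frequent at the lowest scores and narrow widths, and their share falls from 78.1% at scores of 80 to 100 to 0.638% at 1000 or more.

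CTCF sites without cohesin were also narrower. Their median width was 382 bp, with quartiles of 313 and 455 bp, and the range ran from 155 to 1353 bp. Shared sites had a median of 475 bp, with quartiles of 393 and 560 bp and a range of 152 to 1730 bp. Medians per chromosome were 365 to 425 bp against 447 to 530 bp, lower for sites without cohesin on 19 of 19 chromosomes. When all CTCF peaks were split into 10 equal classes by width, the share without cohesin fell at every step, from 60.2% of peaks of 152 to 293 bp to 8.42% of peaks of 613 to 1730 bp.

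Width and score move together in peak lists, so each was also compared within ranges of the other. Within each of the 10 width classes the median score was lower for sites without cohesin. In the narrowest class it was 110.61 against 184.86, and in the widest class it was 311.31 against 745.48. Within ranges of score the median widths were closer than over all peaks, and sites without cohesin were narrower in 4 of 5 ranges. For scores of 80 to 100 the median width was 346 bp without cohesin and 366 bp for shared sites, from 100 to 200 381 and 403 bp, from 200 to 500 440 and 461 bp, and at 1000 or more 554 and 575 bp. From 500 to 1000 sites without cohesin were the wider, with 532 against 521 bp. Scores within a range were still lower for sites without cohesin, for example with medians of 260.67 against 329.26 from 200 to 500. A wider peak can also share a base pair more easily, and the part of this in the width difference was not tested. With both lists cut to 200 bp around the peak midpoints, 14145 peaks were without cohesin. This total was not split by the original width.

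A small number of CTCF sites without cohesin had strong support. There were 273 with a score of 500 or more, which is 2.01% of the sites, and 17 with 1000 or more. The 273 sites were spread over 19 chromosomes, with 4 to 26 on each. Their median distance to the nearest Smc1 peak was 8.48 kb, with quartiles of 3.23 and 19.3 kb, and 20 of them had an Smc1 peak within 1 kb. Another site without cohesin lay within 10 kb of 38.1% of them, against 24.2% of all sites without cohesin. They were also nearer to shared CTCF sites, at a median of 9.68 kb against 15.7 kb. Of the CTCF peaks next to sites without cohesin with scores of 500 to 1000, 36.1% were without cohesin. For all sites without cohesin it was 35.0%.

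The 5 sites with the highest scores lay on chromosomes 2, 5, 8 and 14 of the mm9 build. The highest score, 1621.4, belonged to chr2:164215188-164215885, a peak of 698 bp whose nearest Smc1 peak was 2.09 kb away with an Smc1 score of 116.97. The site at chr14:51405047-51405474 was 428 bp wide and had a score of 1426.94, with an Smc1 peak 2.33 kb away. At chr8:98412036-98412707 the score was 1347.89 and the nearest Smc1 peak was 26.1 kb away. The site at chr5:108329371-108329763 had a score of 1240.28 and lay 8.47 kb from Smc1. The last of the 5, chr2:155517791-155518342, had a score of 1197.82 and lay 3.58 kb from Smc1. These scores lie among the highest 5% of shared sites, which begin at 1175.36. In 4 of the 5 places the nearest Smc1 peak was within 10 kb, and the nearest shared CTCF site lay at a like distance, 2.07 to 26.1 kb.

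The 3 widest and the 3 narrowest sites all had scores above the median of 128.63. The widest was chr11:121097895-121099247, with 1353 bp, a score of 687.22 and 34.4 kb to Smc1. It was followed by chr11:72019388-72020483 with 1096 bp and a score of 297.92, and by chr17:21668862-21669950 with 1089 bp and 280.66. The narrowest were chr1:90046753-90046907 with 155 bp, chr7:125898367-125898534 with 168 bp and chr11:86137436-86137606 with 171 bp. Their scores were 143.94, 190.31 and 132.88.

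Most CTCF sites without cohesin lay some kilobases from the nearest Smc1 peak. Edge to edge, the median gap was 12.8 kb, with quartiles of 4.68 and 29.6 kb. A gap of at most 100 bp was found for 57 sites (0.420%), and a gap of over 100 bp and up to 1 kb for 824 (6.07%). Gaps over 1 kb and up to 10 kb were held by 4938 sites (36.4%), and gaps over 10 kb and up to 100 kb by 7101 (52.3%). The remaining 645 sites (4.75%) were more than 100 kb from any Smc1 peak.

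Shared sites served as a yardstick for these distances, measured to the nearest Smc1 peak that did not overlap them. From midpoint to midpoint, sites without cohesin had a median distance of 13.2 kb and shared sites one of 11.2 kb. Over all scores the upper quartiles were close, at 30.0 and 28.7 kb, and so were the 95th percentiles, at 96.2 and 95.5 kb. The excess of shared sites lay at short range, with lower quartiles of 5.10 kb without cohesin and 3.66 kb for shared sites. Within ranges of score the order of the medians was not the same throughout. For scores of 80 to 100 they were 14.4 kb without cohesin and 13.3 kb for shared sites, for 100 to 200 13.5 and 13.0 kb, and for 200 to 500 11.7 and 11.7 kb. For scores of 500 to 1000 the sites without cohesin had the shorter median, 9.48 against 10.2 kb, and at 1000 or more it was 4.67 kb over 17 sites against 9.0 kb. The upper quartile was longer for shared sites in each range of score. For scores of 80 to 100 it was 33.9 kb without cohesin and 36.4 kb for shared sites. It was 30.1 and 34.5 kb from 100 to 200, and 26.2 and 29.8 kb from 200 to 500. From 500 to 1000 it was 20.3 and 25.5 kb, and at 1000 or more 8.82 and 22.6 kb.

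The nearest Smc1 peak was in most cases one that carried CTCF. For 11147 of the 13565 sites (82.2%) it shared base pairs with another CTCF peak, and for 2418 (17.8%) it did not. Among all 37113 Smc1 peaks of these chromosomes, 76.6% shared base pairs with CTCF. The share of nearest Smc1 peaks without CTCF was 20.4% for gaps up to 1 kb, 17.1% from 1 to 10 kb, 17.4% from 10 to 100 kb and 24.7% beyond 100 kb. The median score of these nearest Smc1 peaks was 233, close to the 229 of all Smc1 peaks.

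**Figure D2:**
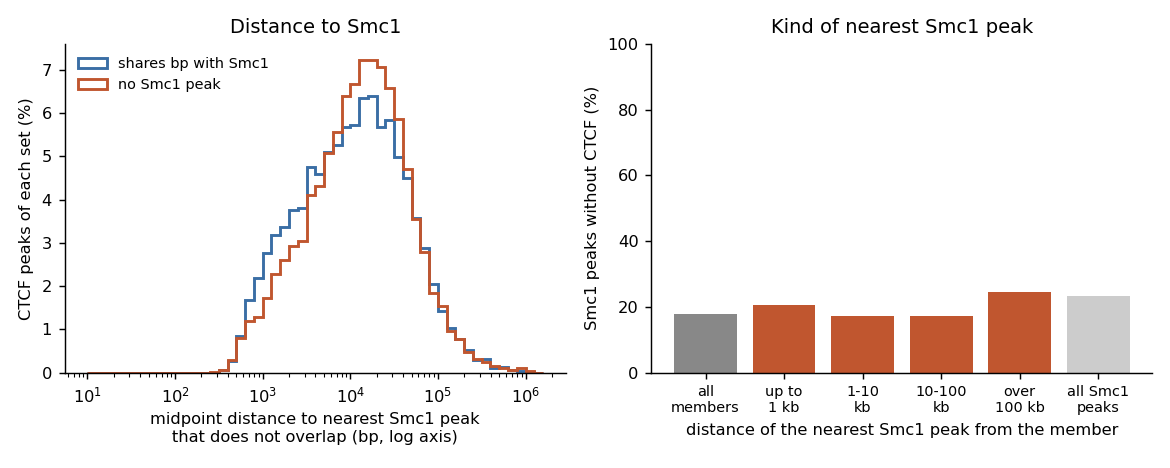
Left, midpoint distance to the nearest Smc1 peak that does not overlap (bp, log axis) as percent of CTCF peaks without Smc1 (orange, n = 13565) and of shared CTCF peaks (blue, n = 28344). Right, percent of the nearest Smc1 peaks that carry no CTCF peak, for all sites without cohesin (dark grey), by distance (orange), and for all Smc1 peaks (light grey). The curves differ most at short distances, and the bars lie between 17.1% and 24.7%.

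The edge of the rule was narrow in base pairs. On the inside, chr4:123265570-123265909 (score 106.19) touched an Smc1 peak with a gap of 0 bp. The site chr19:34625344-34625681 (score 240.38) lay 3 bp from one, and chr7:97147032-97147573 (score 196.96) lay 4 bp from one. On the outside, chr8:113153006-113153575 (score 292.79) shared 1 bp with Smc1, chr6:34305359-34305733 (score 85.45) shared 3 bp, and chr4:151505326-151505938 (score 393.03) shared 4 bp. Such peaks were rare. Only 21 shared sites shared under 50 bp, 95.8% of shared sites were covered by Smc1 over at least 50% of their width, and the median cover was 81.8%.

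At the other end, the 3 sites farthest from Smc1 were chr17:61460322-61460679, chr14:113294735-113295279 and chr12:63994190-63994581. They lay 1199, 1117 and 1066 kb from the nearest Smc1 peak and had scores of 91.31, 210.73 and 159.41. The nearest shared CTCF site was 1199, 1117 and 1067 kb away. Of the 645 sites beyond 100 kb, 7.75% had another site without cohesin within 10 kb, and their median score was 116.96. Their median width was 339 bp, below the 382 bp of all sites without cohesin. They made up 9.20% of the sites without cohesin on chromosome 14 and 1.26% of those on chromosome 19, the highest and lowest of the 19 chromosomes.

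Neighbouring CTCF sites without cohesin stood at a median gap of 63.8 kb. The quartiles were 21.7 and 169 kb, the shortest gap was 2 bp and the longest 7760 kb. Shared sites, of which there were more, had a median gap of 33.4 kb, and all CTCF peaks together one of 20.9 kb. Gaps over 1 Mb separated sites without cohesin in 408 places and shared sites in 192. The longest interval was chr7:39012656-46772962 with 7.76 Mb, which held 1 shared CTCF site and 1 Smc1 peak. The next were chr15:14348711-21039184 with 6.69 Mb, 13 shared sites and 15 Smc1 peaks, and chr7:7089538-13459673 with 6.37 Mb, 4 shared sites and 4 Smc1 peaks.

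Most sites without cohesin were single on a 10 kb scale. Another such site lay within 10 kb of 3289 of them, 24.2% (95% interval 23.5% to 25.0%), against 42.6% of the more numerous shared sites with another shared site in that range. Linked by gaps of at most 10 kb, 10276 stood alone, 1184 groups held 2 sites, 225 held 3, 41 held 4, 14 held 5 and 2 held 6. The 282 groups of 3 or more held 921 sites and had a median length of 11.3 kb. An Smc1 peak lay inside 79 of these groups and a shared CTCF site inside 71, and 203 groups held neither.

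**Figure D3:**
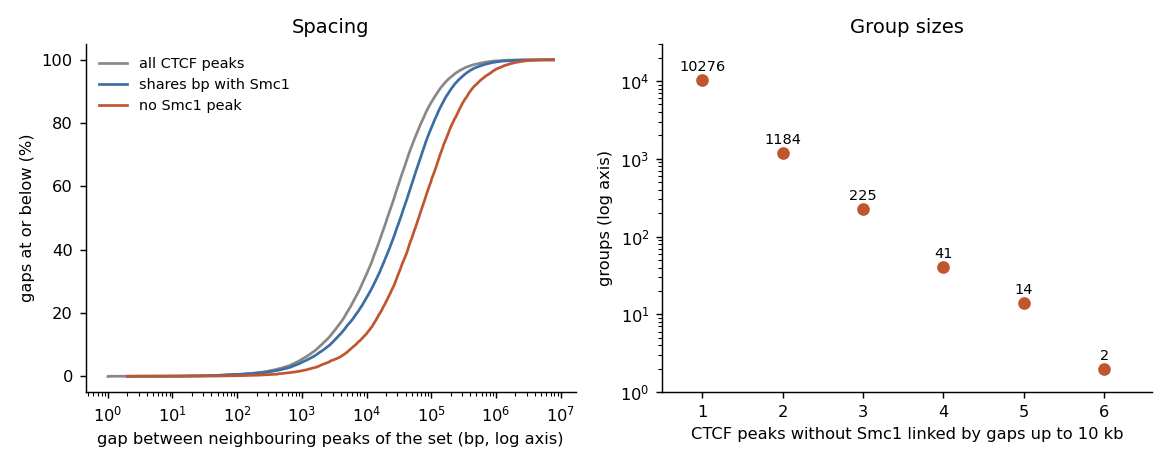
Left, cumulative percent of gaps between neighbouring peaks (bp, log axis) for CTCF peaks without Smc1 (orange), shared CTCF peaks (blue) and all CTCF peaks (grey). Right, number of groups (log axis) by how many CTCF peaks without Smc1 are linked by gaps up to 10 kb. The orange curve lies to the right, at a median of 63.8 kb, and 10276 sites are alone.

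The 3 fullest groups differed in layout. On chromosome 2, chr2:28452522-28495797 held 6 sites along 43.3 kb, with scores of 86.9 to 240.38 and with 1 Smc1 peak and 1 shared CTCF site between them. Its sites lay 2.04 to 16.9 kb from Smc1. The other group of 6, chr2:168695948-168707966, was packed into 12.0 kb with no Smc1 peak inside, 20.2 to 29.6 kb from the nearest one. There 5 sites had scores of 83.04 to 156.51 and the sixth, chr2:168707316-168707966, had 656.43. The group at chr5:120142485-120159267 held 5 sites in 16.8 kb with scores of 89.43 to 224.51, at 0.887 to 9.70 kb from Smc1. It was 1 of 14 groups of 5 and is named as the one with the lowest chromosome number.

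Sites without cohesin were next to one another slightly more often than their share of all CTCF peaks. On the list of all CTCF peaks, 35.0% of the neighbours of a site without cohesin were also without cohesin, against 31.1% of the neighbours of a shared site and 32.4% of all CTCF peaks. The difference was widest between close neighbours. At gaps up to 1 kb it was 37.9% against 23.5%, from 1 to 10 kb 37.6% against 29.6%, from 10 to 100 kb 34.6% against 33.5%, and over 100 kb 29.8% against 28.4%. Of 1249 pairs of neighbouring shared sites at gaps up to 1 kb, 104 (8.33%) shared base pairs with the same Smc1 peak. With scores of 100 to 200 the shares over all gaps were 34.9% and 29.9%, and with scores of 200 to 500 they were 35.9% and 30.5%.

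**Figure D4:**
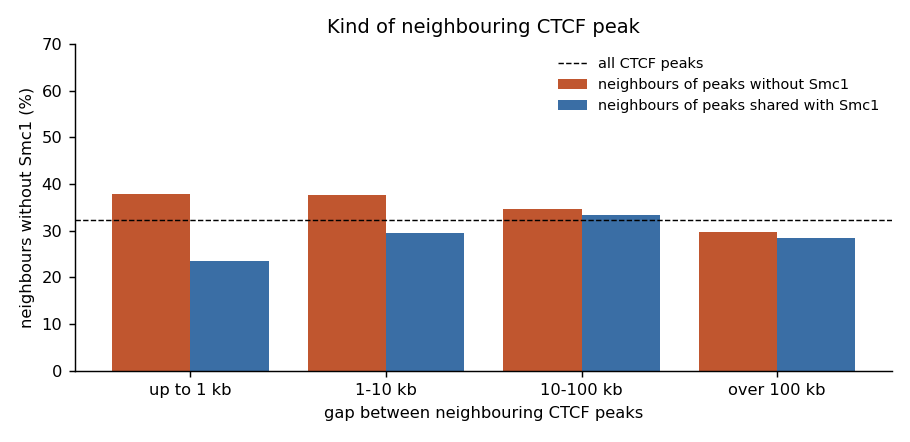
Percent of neighbouring CTCF peaks that are without Smc1, for neighbours of peaks without Smc1 (orange) and of shared peaks (blue), by the gap between the neighbours. The dashed line is the 32.4% of all CTCF peaks. The bars stand apart at gaps up to 10 kb and are within 2 percentage points of each other beyond it.

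Runs of consecutive CTCF peaks without cohesin were short. Of 8825 runs, 5823 were 1 peak long, 1948 held 2 and 1054 held 3 or more, and the last held 28.4% of the sites. Run lengths depend on the share of all CTCF peaks that are without cohesin, 32.4%. The lengths that this share alone would give were not computed, and runs of shared sites were not counted. The longest runs had 9 peaks each. One, chr5:102142135-102498805, spread over 357 kb with a median score of 211.76, and the other, chr13:101454265-101624584, over 170 kb with a median of 204.44. Neither held an Smc1 peak, and they were also the 2 intervals between neighbouring Smc1 peaks with most sites, 373 and 232 kb long. These runs were picked after their values were seen. Of 37132 intervals between neighbouring Smc1 peaks, chromosome ends included, 9394 (25.3%) held at least 1 site without cohesin. In 6623 there was 1 site, in 1883 there were 2 and in 888 there were 3 or more.

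Within 10 kb, sites without cohesin had a shared site somewhat less often than shared sites had another shared site. The nearest shared CTCF site lay at a median of 15.7 kb, with quartiles of 5.79 and 36.8 kb. It was within 1 kb for 751 sites (5.54%), within 10 kb for 5061 (37.3%) and over 100 kb away for 960 (7.08%). Of the shared sites, 8.56% had another shared site within 1 kb and 42.6% had one within 10 kb. Another site without cohesin, the less numerous kind, lay within 10 kb of 24.2% of the sites without cohesin.

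The density of CTCF sites without cohesin differed 2.43-fold between chromosomes. It was taken over the span from the chromosome start to the last deposited peak, because chromosome lengths were not used here. Chromosome 11 had the most, 9.32 sites per Mb, followed by chromosome 5 with 7.59 and chromosome 17 with 6.84. The lowest were chromosome 3 with 3.83, chromosome 16 with 3.91 and chromosome 14 with 4.17, and the median over 19 chromosomes was 5.29. Shared sites ran from 9.14 per Mb on chromosome 14 to 17.3 on chromosome 11, and the 2 densities moved together (Pearson r = 0.898, Spearman rho = 0.849 over 19 chromosomes). The chromosomes share both libraries, and gene density and base composition were not analysed here. In 2482 bins of 1 Mb the counts of sites without cohesin and shared sites also moved together (r = 0.787, rho = 0.813).

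The share of CTCF peaks without cohesin varied less than the density. It was highest on chromosome 5, 39.2% (95% interval 37.5% to 41.0%), followed by chromosome 17 with 36.0% and chromosome 11 with 35.0%. The lowest shares were 28.1% on chromosome 16, 28.9% on chromosome 3 and 29.4% on chromosome 1. Chromosome 5 also had the largest share of CTCF peaks with scores under 200, 43.3% against a median of 40.1%, which was not tested as a part of its high share. Over 19 chromosomes, the share without cohesin and the share with scores under 200 had a Pearson r of 0.235 and a Spearman rho of 0.0947. The share without cohesin and the number of CTCF peaks per Mb had an r of 0.620 and a rho of 0.656. Among peaks with scores of 100 to 200 alone, chromosome 7 was highest with 65.3%, ahead of chromosome 5 with 63.2%, and chromosome 16 was lowest with 50.0%. With chromosome 5 left out, 31.8% of the remaining CTCF peaks were without cohesin.

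**Figure D5:**
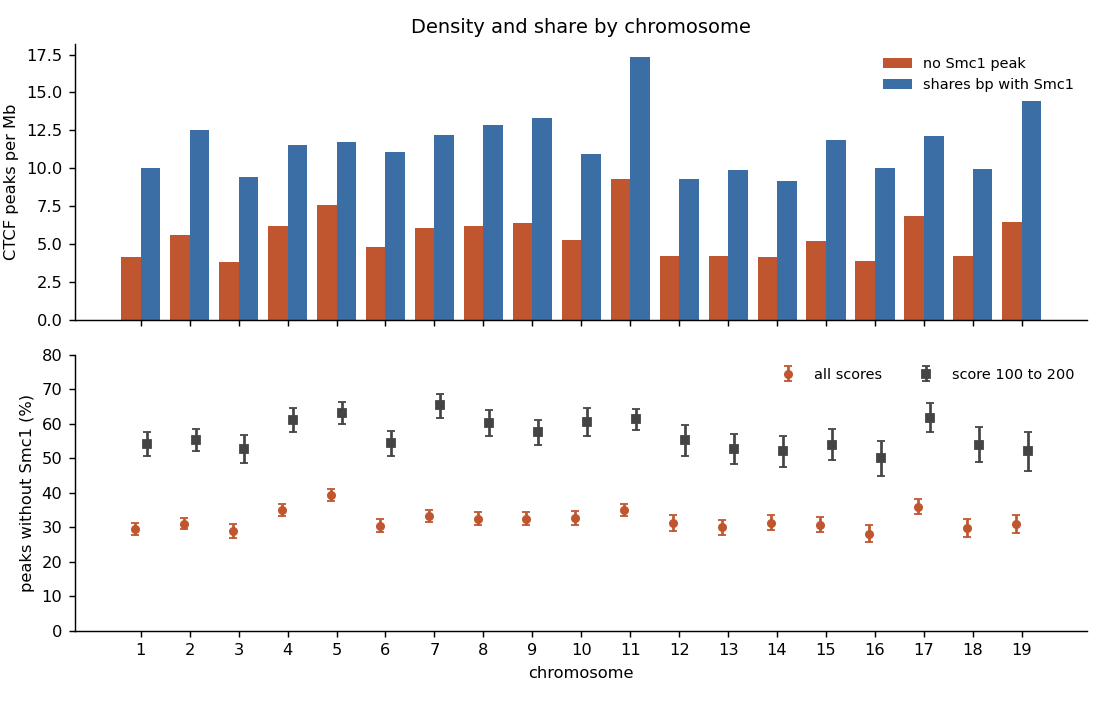
Top, CTCF peaks per Mb without Smc1 (orange) and shared with Smc1 (blue) on 19 chromosomes. Bottom, percent of CTCF peaks without Smc1, for all peaks (orange circles) and for peaks with scores of 100 to 200 (grey squares), with exact 95% binomial intervals. Chromosome 11 has the tallest bars, and chromosome 5 the highest percent over all scores, 39.2%.

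The high share of chromosome 5 lay in its distal part. In bins of 10 Mb it was 16.9% to 37.3% up to 110 Mb, with 433 of 1403 peaks (30.9%) without cohesin in all. From 110 Mb on it was 725 of 1549 peaks (46.8%), with 50.3% from 120 to 130 Mb, 52.9% from 140 to 150 Mb and 59.3% of 108 peaks from 150 Mb to the end. Among peaks with scores of 100 to 200, the bins from 110 Mb on had 63.8% to 82.1%, above the 25.0% to 62.4% of the bins before. This division was chosen after the values were seen. Of the 243 bins of 10 Mb with at least 50 CTCF peaks on all 19 chromosomes, the median share was 30.7%. The 2 highest were chromosome 5 from 150 and from 140 Mb. High shares were also found elsewhere, with 51.9% of 77 peaks on chromosome 11 from 120 Mb, the next highest. Chromosome 7 from 30 to 40 Mb had 47.5%. The lowest were 13.2% on chromosome 16 from 70 to 80 Mb and 14.0% on chromosome 3 from 40 to 50 Mb.

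On the scale of 1 Mb, sites without cohesin were unevenly spread. A bin held a median of 4 and at most 39 of them, and 428 bins held none. Of these, 271 held a CTCF peak, and the others held no CTCF peak of either kind. The variance of the count over its mean was 6.17, and that of shared sites was 7.51 at a higher mean (11.4 against 5.47 per bin). The 89 bins with 20 or more sites held 15.8% of all sites without cohesin, and 18 of them were on chromosome 5. The fullest was chromosome 5 from 150 to 151 Mb with 39 sites without cohesin, 23 shared sites and 29 Smc1 peaks. Next came chromosome 7 from 29 to 30 Mb with 38 sites without cohesin, 31 shared sites and 37 Smc1 peaks. Both bins held more Smc1 peaks than the highest chromosome average, 21.5 per Mb on chromosome 11. Groups of 3 or more sites within 10 kb links were most frequent on chromosome 17 (25.2 per 100 Mb), chromosome 5 (24.9) and chromosome 11 (23.0) and least on chromosome 16 (2.04).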

How the data were processed

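CTCF and Smc1 ChIP-seq peaks of NPCs were used, 1 library each, with the rule for members and all comparisons chosen with earlier results of these data known. The authors deposited peak positions and a score per peak, called with MACS per the peak names in the files, at a p-value limit of 1E-8 per the file names. Bowtie and mm9 are named per the submitters' processing notes. Versions and the use of the input are not given in the sources used here. Overlaps, gaps and counts were computed with Python 3.11.15, numpy 2.4.6 and pandas 2.3.3 and tested on simulated data against brute force. Intervals were half-open, at least 1 bp had to be shared, gaps run from edge to edge, and printed starts are counted from 1. No peak overlapped another of its own list. Exact binomial 95% intervals (scipy 1.17.1) cover counting error only, and intervals of medians come from binomial ranks. Regions were named by a fixed rule: the highest scores, the widest and narrowest, the farthest and closest to Smc1, the fullest groups, the longest gaps and the extreme chromosomes, with ties by chromosome and start. Peaks on the X and Y chromosomes were left out. Genes, motifs and sequences at the sites were not analysed here. Alternatives were other overlaps, 200 bp peaks, scores of at least 200, all chromosomes and other link gaps. The 5C table has no chromosome coordinates and was not used.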

Additional observations from a re-analysis of the deposited data

Results flagged for a closer look

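The X chromosome lay outside the comparisons and also held CTCF sites without cohesin. Of its 982 CTCF peaks, 260 shared no base pair with an Smc1 peak, 26.5% (exact 95% interval 23.7% to 29.4%), or 1.56 per Mb. The share was below that of each of the 19 autosomes, of which chromosome 16 was lowest with 28.1%, and the intervals of these 2 overlap. The sites had a median score of 122.06, a median width of 321 bp and a median gap of 26.6 kb to Smc1, against 128.63, 382 bp and 12.8 kb on the autosomes. Both lists were sparse on the X chromosome. Its 982 CTCF and 878 Smc1 peaks were fewer than on any autosome, where the lowest counts were 1282 and 1119. The part of these low counts in the gap was not tested. The cells are male and carry 1 X chromosome, and the part of this in the values was not tested.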

How the results depend on the processing

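Of 50 alternative values, 17 stayed within the 95% interval of the reported value (within 1.5 times for counts and densities) and 33 did not. Some of these outcomes follow from the setting itself, such as a median score above 200 with CTCF peaks of at least 200. The tally is therefore no measure of how stable the results are. No paired analysis was possible because each peak list comes from 1 library. With Smc1 peaks of at least 200, 22612 CTCF peaks were without cohesin (54.0%, 8.98 per Mb), with a median width of 400 bp, score of 153.19, distance to Smc1 of 23295 bp and spacing of 39829 bp, and 34.2% had another within 10 kb. With CTCF peaks of at least 200 there were 2938 (11.7%, 1.18 per Mb), at 446.5 bp, 271.42, 10979.5 bp and 258770 bp, and 10.8%. When 50% of the peak had to be covered, 35.2% were without cohesin, at 393 bp, 134.73, 11016 bp and 57337 bp, and 26.6% were clustered. When Smc1 within 1 kb counted as shared, 30.3% were without cohesin, at a distance of 14340 bp and a spacing of 69416 bp, and 22.9% were clustered. With peaks cut to 200 bp, which sets the width to 200 bp, the share was 33.8%, the score 131.46, the distance 12150 bp and the spacing 61445 bp. With links of 5 and 50 kb, 14.4% and 63.8% were clustered. The number, share, density, width and score of sites without cohesin therefore hold only for the deposited limits. The same is true of their distance to Smc1, spacing and clustering. The unknown depth of the libraries limits how far weak Smc1 binding could be seen.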

Other observations

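The CTCF list held 2 peaks on the Y chromosome, with a median score of 100.58, and the Smc1 list held 0 there.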
